A study of Mus musculus with 4 samples.

Results

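The MAP kinase phosphatases and the suppressors of cytokine signalling are inhibitors that cells make in response to the signals they switch off. The set studied here holds 10 genes, found by symbol among the 24625 genes of the count tables. Of these, 7 encode phosphatases (Dusp1, Dusp2, Dusp4, Dusp5, Dusp6, Dusp10 and Dusp16) and 3 encode suppressors (Socs1, Socs3 and Cish). RNA came from peritoneal macrophages of C57BL/6 mice, 2 libraries from a control diet of standard chow and 2 from a high-fat diet with 60% of its energy as fat. Feeding lasted 12 weeks. In both diets the mice were injected intraperitoneally with 3% thioglycollate, which irritates the peritoneum and draws in macrophages, 4 days before the cells were collected. The labels used here do not give the age and sex of the mice or say whether a library is 1 mouse or a pool, so the p-values measure the spread between these libraries, which may be technical. Standard chow and a defined high-fat diet can differ in more than fat, and these differences cannot be told apart. The cells are recruited macrophages, and their RNA is a sample of the whole collected population.

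MAP kinases (ERK, JNK and p38) are active only while both a threonine and a tyrosine of their activation loop carry phosphate. The dual-specificity phosphatases remove both phosphates, and many of their genes are transcribed soon after the same kinases are switched on, which closes a negative feedback loop. Cytokine receptors signal through JAK kinases and STAT transcription factors, and STATs in turn induce SOCS proteins and CIS, the product of Cish, which block the receptor or the kinase. In macrophages these loops limit the response to bacterial products and cytokines.

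The promoters of 9 of the 10 genes were in the RefSeq table (GRCm38.p6), each as 300 bases from 250 before to 50 after the transcription start. They were searched on both strands for 4 motifs bound by transcription factors that signals regulate: the cyclic AMP response element TGACGTCA, the STAT motif TTCNNNGAA, the E-box CACGTG, bound by factors such as USF and MYC, and the CArG box bound by serum response factor. None of the matches in the members overlapped another. The motifs occur in 1.79%, 8.30%, 7.15% and 1.63% of all 32851 promoters of this length. The 4 promoters below are those of the tested phosphatases and of the suppressor that hold a match, and capitals mark the matches. A match is a description of the letters and shows no binding.

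Dusp1: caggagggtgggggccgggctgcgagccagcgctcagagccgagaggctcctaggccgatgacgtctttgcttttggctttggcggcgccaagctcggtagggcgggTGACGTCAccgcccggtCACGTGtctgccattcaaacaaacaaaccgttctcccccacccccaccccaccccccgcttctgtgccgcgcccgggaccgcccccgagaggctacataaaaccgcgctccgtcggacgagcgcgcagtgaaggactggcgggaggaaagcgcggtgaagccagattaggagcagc
Dusp2: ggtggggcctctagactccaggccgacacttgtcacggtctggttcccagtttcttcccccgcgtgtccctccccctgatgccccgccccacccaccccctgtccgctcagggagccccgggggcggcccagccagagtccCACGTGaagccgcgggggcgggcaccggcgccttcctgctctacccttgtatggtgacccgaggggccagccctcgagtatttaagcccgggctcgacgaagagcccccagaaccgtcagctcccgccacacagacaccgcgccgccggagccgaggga
Dusp5: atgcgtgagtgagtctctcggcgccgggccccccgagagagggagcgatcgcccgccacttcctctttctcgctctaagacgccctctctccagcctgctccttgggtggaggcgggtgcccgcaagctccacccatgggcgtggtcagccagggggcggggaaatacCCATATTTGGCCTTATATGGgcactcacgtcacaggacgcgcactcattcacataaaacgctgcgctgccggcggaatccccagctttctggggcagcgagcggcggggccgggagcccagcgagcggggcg
Socs3: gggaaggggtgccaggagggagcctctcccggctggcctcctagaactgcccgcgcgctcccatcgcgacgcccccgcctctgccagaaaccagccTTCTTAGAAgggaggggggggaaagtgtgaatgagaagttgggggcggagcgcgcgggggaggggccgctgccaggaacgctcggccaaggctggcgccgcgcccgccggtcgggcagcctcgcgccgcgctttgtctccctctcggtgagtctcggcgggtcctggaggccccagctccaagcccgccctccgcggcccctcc

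The Dusp1 window (chr17:26508423-26508722, minus strand) held the cyclic AMP response element at position -143 from the start, and an E-box at -126. The Dusp2 window (chr2:127335909-127336208, plus strand) held an E-box at -109. The Dusp5 window (chr19:53528895-53529194, plus strand) held 2 adjoining CArG boxes, the first beginning at -82. The Socs3 window (chr11:117969317-117969616, minus strand) held a STAT motif at -154, and the Cish window held 2, at 1 and 12. These letters were not found in the windows of Dusp6, Dusp10, Dusp16 and Socs1.

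The libraries held between 39347347 and 45658551 counts on genes. Levels are given as CPM, a gene's counts scaled to the library's total size and corrected by the trimmed mean of M-values (TMM), and levels of different genes are compared as CPM per kilobase of exon in the deposited gene models. The macrophage marker gene Adgre1, which encodes F4/80, stood at 1016 and 1032 CPM in the control libraries and at 977 and 964 CPM in the high-fat libraries. In the control diet the order of the 10 genes per kilobase was Dusp1 (29.1 CPM per kb), Dusp4 (12.7), Dusp6 (10.7), Dusp2 (4.69), Dusp16 (4.11), Dusp10 (4.03), Dusp5 (1.95), Socs3 (1.09), Socs1 (0.104) and Cish (0.0924). Dusp16 and Dusp10 did not differ beyond their spread there, nor did Socs1 and Cish. In the high-fat diet Dusp1 (39.5 CPM per kb), Dusp4 (12.2) and Dusp6 (9.95) again led, and the next 4 genes, Dusp10 (4.72), Dusp16 (4.26), Dusp2 (3.30) and Dusp5 (3.05), each overlapped their neighbour in the order. Per kilobase the 7 phosphatases stood above the 3 suppressors in all 4 libraries, with Dusp1 alone making up 43.0% to 52.8% of the 7 phosphatases' summed CPM per kb. The deposited model of Dusp5 covers 1155 bases, exactly the coding length of its transcript in GENCODE M21, whose full transcript has 2473. Reads from the untranslated parts of Dusp5 therefore lay outside its model, and its counts rest on coding exons, while the models of the other phosphatases also hold untranslated sequence.

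**Figure D1:**
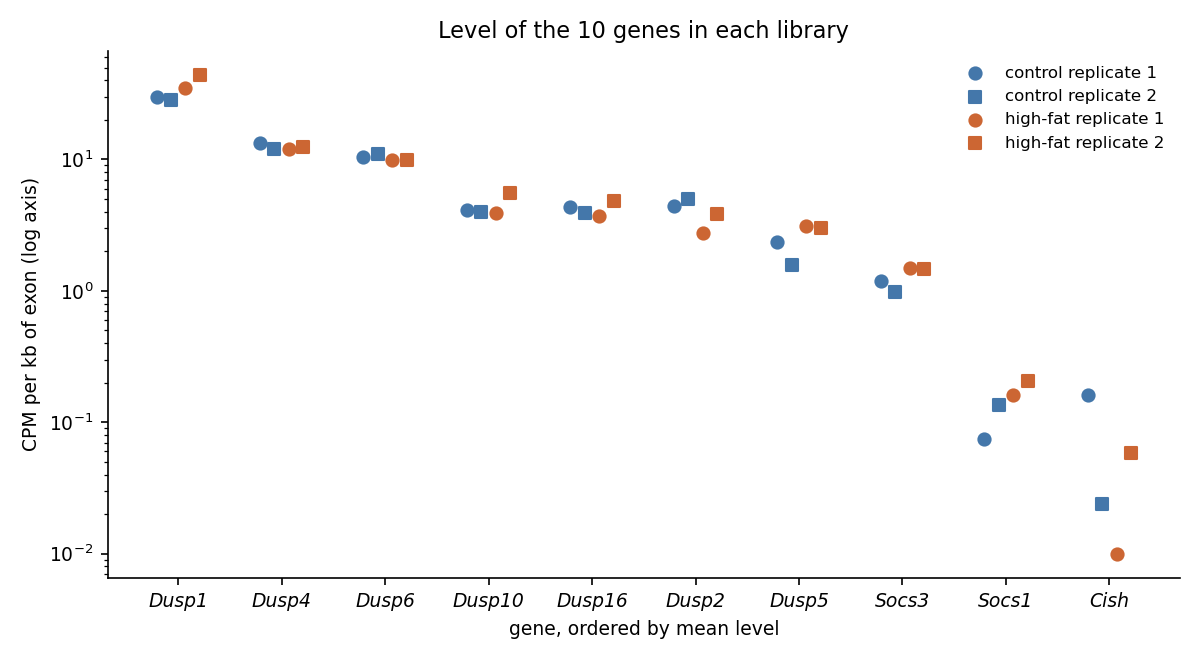
Level of each gene in each library, in CPM per kilobase of exon on a log axis; blue marks are control libraries, orange marks high-fat libraries, circles replicate 1 and squares replicate 2. Dusp1 is highest in every library, and Socs1 and Cish lie at or below 0.206 CPM per kb.

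The diets were compared with edgeR's quasi-likelihood test over 12747 genes with enough counts, of which 8 were members; Socs1 and Cish had too few. None of the 8 passed an adjusted p of 0.05, against 78 of all tested genes (0.612%; 0.322% higher and 0.290% lower). At an unadjusted p under 0.05 there were 3 of the 8 (Dusp1, Dusp2 and Dusp5), against 17.0% of all tested genes. DESeq2 also called 0 of the 8 (2.93% of all genes with an adjusted p) and limma-voom 0 (0.361%). In 5 of the 8 the libraries of the diets did not overlap, 3 higher and 2 lower with high-fat diet; among all tested genes 51.0% were so separated, 26.1% higher and 24.9% lower. The members' median log2 fold change, high-fat over control, was 0.14, and that of all tested genes -0.0054. There was no called difference among the 8 genes and no direction shared by all of them, and their log2 fold changes ran from -0.51 to 0.64. With 2 libraries in each diet an exact permutation test of a single value cannot go below a two-sided p of 0.333, so none is given.

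**Figure D2:**
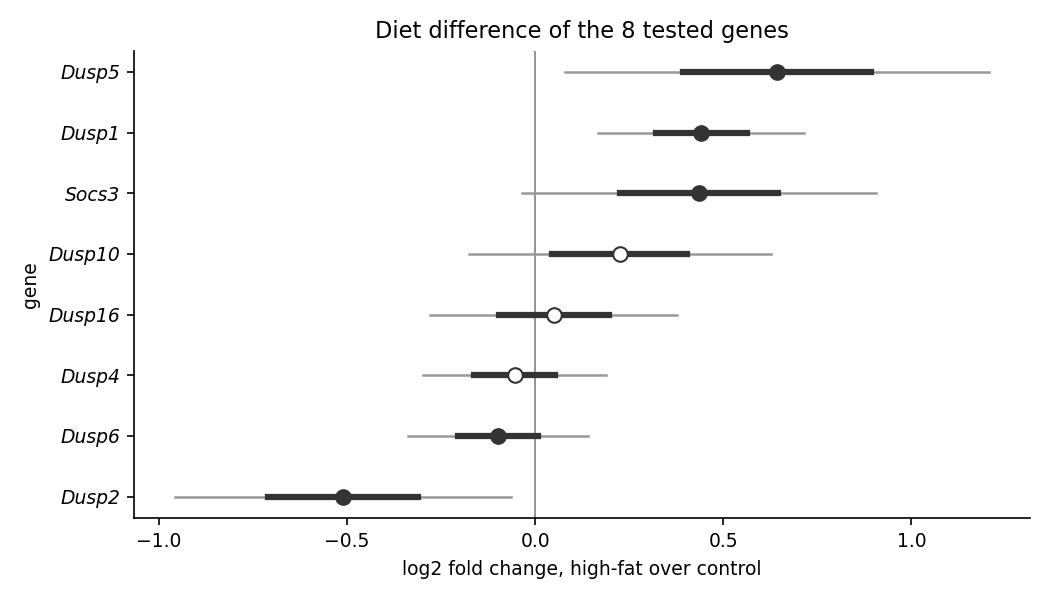
Log2 fold change of each tested gene, high-fat over control, with thick bars for the standard error and thin bars for the 95% interval; filled points are genes whose diets' libraries do not overlap. The intervals of Dusp5 and Dusp1 lie above 0 and that of Dusp2 below it, while those of Socs3, Dusp4, Dusp6, Dusp10 and Dusp16 include 0.

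Dusp1 encodes a nuclear phosphatase that prefers p38 and JNK, and is the family member most studied as a brake on inflammatory gene expression in macrophages. On mm9 it lies at chr17:26642536-26645417 on the minus strand, in 4 exons. Dusp1 stood at 58.1 and 54.9 CPM in control replicates 1 and 2, and at 67.8 and 85.7 CPM in high-fat replicates 1 and 2. Both high-fat libraries were above both control libraries, and high-fat replicate 2 was the highest. The log2 fold change of Dusp1 was 0.44 ± 0.12 (SE; 95% interval 0.17 to 0.71), a fold of 1.36, and it missed the threshold (adjusted p = 0.137, edgeR quasi-likelihood test). High-fat replicate 2 carried much of this difference: without it the log2 fold change of Dusp1 was 0.26 (adjusted p = 0.544), and without high-fat replicate 1 it was 0.60 (adjusted p = 0.00243). Both of these fits have 1 high-fat library, which is assumed to vary like the control pair that alone supplies the spread. Dusp1 also passed when no filter on low counts was applied (adjusted p = 0.0249), a setting under which 522 genes were called in place of 78.

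Dusp5 encodes a nuclear phosphatase specific to ERK, and its transcript is itself induced by ERK. Its 4 exons lie on mm9 at chr19:53603808-53615812 on the plus strand. Dusp5 had 109 and 70 counts with control diet and 166 and 139 with high-fat diet, or 2.71, 1.80, 3.58 and 3.48 CPM. The high-fat libraries were close to each other and above both controls, while the controls differed from each other by a ratio of 1.5. The log2 fold change of Dusp5 was 0.64 ± 0.25 (95% interval 0.080 to 1.21), the highest of the 8, and did not pass (adjusted p = 0.249, edgeR). It was 0.96 without control replicate 1 and 0.38 without control replicate 2, so its size rested on which control library was used.

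Dusp2, also called PAC-1, encodes a nuclear phosphatase of immune cells whose transcript is induced by activation. It lies on mm9 at chr2:127161895-127164113 on the plus strand, in 4 exons. Dusp2 stood at 7.13 and 8.04 CPM in the control libraries and at 4.46 and 6.21 CPM in the high-fat libraries. Both high-fat libraries were below both controls, and high-fat replicate 1 was the lowest. The log2 fold change of Dusp2 was -0.51 ± 0.20 (95% interval -0.96 to -0.064), the lowest of the 8, and did not pass (adjusted p = 0.249, edgeR). Leaving out high-fat replicate 2 gave -0.77 (adjusted p = 0.0625) and leaving out high-fat replicate 1 gave -0.29 (adjusted p = 0.555), again with the spread taken from the control pair alone.

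Dusp4 and Dusp6 were the phosphatases with the tightest estimates. Dusp4, a nuclear phosphatase close to Dusp1 (mm9 chr8:35870664-35882948, plus strand), stood at 32.2 and 29.4 CPM in the control libraries and 29.2 and 30.1 CPM in the high-fat libraries. These values overlap, and the log2 fold change of -0.054 ± 0.11 had a 95% interval of -0.30 to 0.19. Without control replicate 1 it was 0.0065. Dusp6, the cytoplasmic phosphatase specific to ERK and a common readout of ERK activity (mm9 chr10:98725865-98730123, plus strand), stood at 29.1 and 30.5 CPM with control diet and 27.9 and 27.8 CPM with high-fat diet. Its libraries did not overlap, by a small margin, and its log2 fold change was -0.099 ± 0.11 (95% interval -0.34 to 0.14). For both genes the interval leaves out a change of Dusp1's fitted size in the upward direction, but the difference between the genes' fold changes was not tested.

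Dusp10 and Dusp16 encode phosphatases that act on JNK and p38 and not on ERK. Dusp10 (mm9 chr1:185858340-185899515, plus strand) stood at 11.1 and 10.8 CPM with control diet and at 10.6 and 14.99 CPM with high-fat diet. High-fat replicate 2 was the highest library and high-fat replicate 1 the lowest, so the diets overlapped, and the log2 fold change was 0.22 ± 0.18. Dusp16 (mm9 chr6:134665486-134742646, minus strand, 2 RefSeq transcripts) stood at 22.04 and 20.02 CPM with control diet and at 19.1 and 24.5 CPM with high-fat diet, with a log2 fold change of 0.050 ± 0.15. It showed the same arrangement as Dusp10, with high-fat replicate 2 highest and high-fat replicate 1 lowest. Without high-fat replicate 2 both fold changes were below 0, Dusp10 at -0.045 and Dusp16 at -0.14, and without high-fat replicate 1 they were 0.46 and 0.22. Dusp16 was also below 0, at -0.018, without control replicate 2.

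Among the suppressors, Socs3 was the only one with enough counts to test. SOCS3 blocks signalling by the IL-6 receptor subunit gp130 and by related receptors, and its gene is a target of STAT3. Socs3 (mm9 chr11:117827401-117830680, minus strand, 2 exons) had 131 and 104 counts with control diet and 188 and 159 with high-fat diet, or 3.25, 2.68, 4.05 and 3.98 CPM. Both high-fat libraries were above both controls and close to each other. The log2 fold change of Socs3 was 0.44 ± 0.21 (95% interval -0.035 to 0.91, adjusted p = 0.324, edgeR). It ran from 0.30 to 0.58 in the 10 alternative fits. With libraries that do not overlap, leaving out any of them keeps it above 0.

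Socs1, an inhibitor of JAK kinases that limits the response to interferon-gamma, and Cish, a STAT5 target that limits signalling through STAT5, were near the limit of detection. Socs1 (mm9 chr16:10783902-10785629, minus strand) had 4 and 7 counts with control diet and 10 and 11 with high-fat diet. Summed over a diet this is 11 counts (exact Poisson 95% interval 5.49 to 19.7) against 21 (13.0 to 32.1), intervals that cover counting error only and that overlap. Cish (mm9 chr9:107199020-107204292, plus strand) had 14 and 2 counts with control diet and 1 and 5 with high-fat diet, 16 (9.15 to 25.98) against 6 (2.20 to 13.1) in all. Most of its control counts came from control replicate 1. Neither gene allows a statement on diet at this depth: with no filter on low counts the adjusted p of edgeR was 0.664 for Socs1 and 0.517 for Cish.

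**Figure D3:**
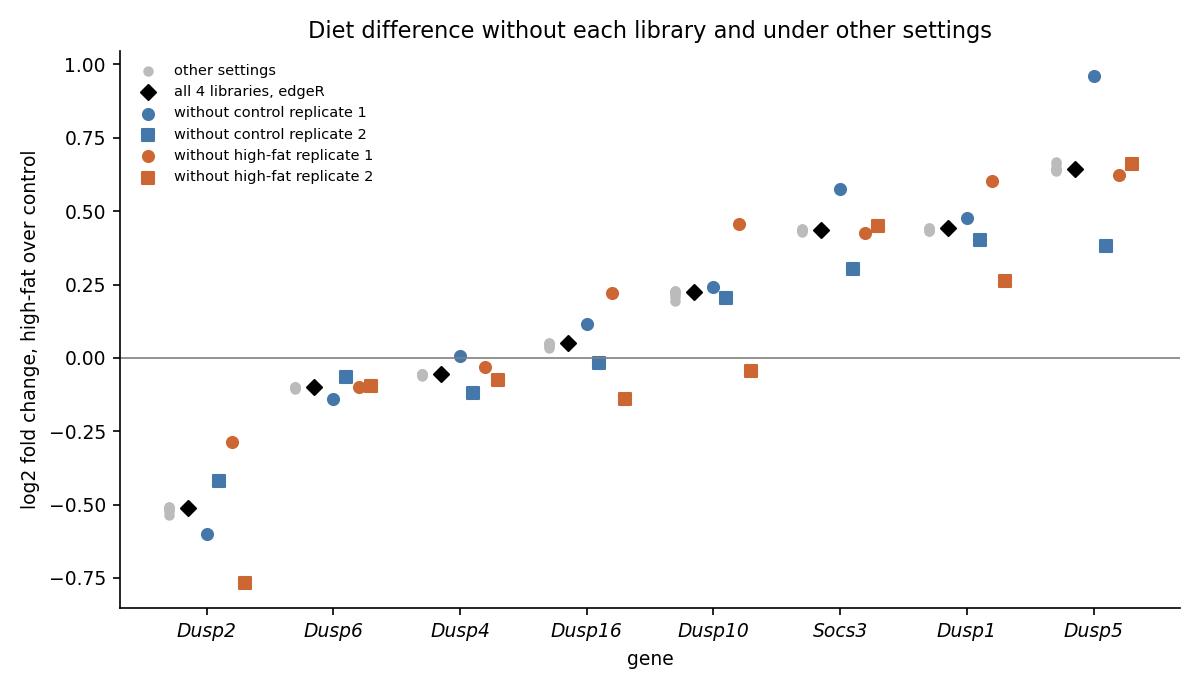
Log2 fold change of each tested gene, high-fat over control, with all 4 libraries (black), without each library in turn (coloured) and under the other settings (grey). Dusp10, Dusp16 and Dusp4 cross 0 when a library is left out, while Dusp1, Dusp5 and Socs3 stay above 0 and Dusp2 and Dusp6 below it. The genes that do not cross are those whose diets' libraries do not overlap, a separation that leaving out a library keeps.

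Ratios of counts within a library need no scaling between libraries and show the phosphatases' levels against each other. Dusp1 had 8.15 and 6.83 counts for each Dusp2 count with control diet and 15.2 and 13.8 with high-fat diet. The 2 high-fat values were close together and far above both controls. The ratio of Dusp1 to Dusp6 was 1.998 and 1.80 with control diet and 2.43 and 3.09 with high-fat diet. The ratio of Dusp1 to Dusp4 was 1.81 and 1.87, and 2.32 and 2.85. The share of Dusp1 in the phosphatases' summed CPM per kb was 43.5% and 43.0% with control diet and 49.6% and 52.8% with high-fat diet. These ratios were chosen after the values were seen and carry no test. They restate the members' values within each library.

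**Figure D4:**
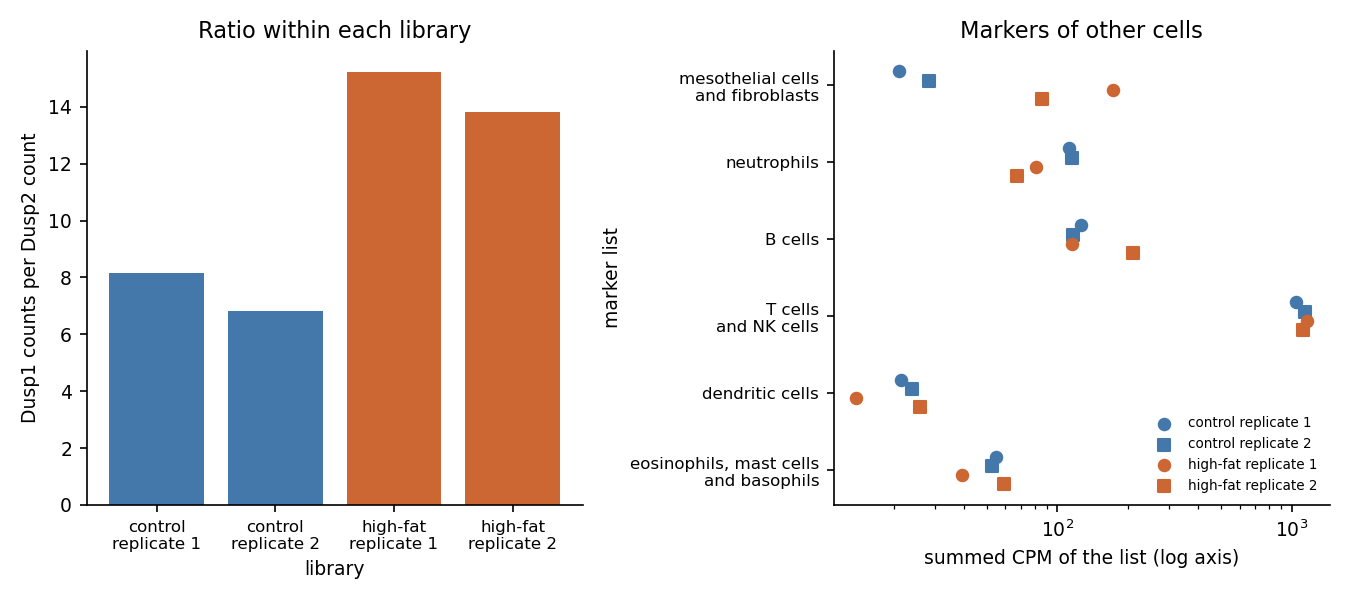
Left, counts of Dusp1 per count of Dusp2 in each library, from 6.83 to 8.15 with control diet and from 13.8 to 15.2 with high-fat diet. Right, summed CPM of each list of markers of other cells by library on a log axis, in which mesothelial and fibroblast markers stand higher in both high-fat libraries; Il7r makes up nearly all of the T and NK cell sum.

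The surrounding pathways were described from 10 lists of 127 genes, 111 of which were tested. Adjusted over all tested genes, 3 of the 111 (2.7%) were called, Errfi1 and Fos higher and Csf3r lower, against 0.612% of all tested genes. At an unadjusted p under 0.05 there were 21 (18.9%), 9 higher and 12 lower, a share near the 17.0% of all tested genes. The diets' libraries did not overlap in 50 of the 111, or 45.0%, and the median log2 fold change was -0.060. Among all tested genes 51.0% did not overlap and the median was -0.0054.

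Inhibitors of the same kind as the members gave 1 call. Errfi1, which encodes a feedback inhibitor of EGF receptor kinases induced by ERK, rose from 17.8 and 16.02 CPM with control diet to 26.5 and 29.2 CPM with high-fat diet (log2 fold change 0.72 ± 0.12, adjusted p = 0.0456, edgeR). With the Sprouty and Spred genes its list had 6 tested genes, each above 0, with Spry1 at 0.51 ± 0.45. Only Errfi1 among them had an unadjusted p under 0.05 (edgeR). Of the 8 other DUSP genes 7 were above 0, but none passed and none had an unadjusted p under 0.05. Dusp22 had a log2 fold change of 0.22 ± 0.11 and Dusp7, an ERK phosphatase, 0.18 ± 0.12. The other 5 SOCS genes had fold changes between -0.093 and 0.24 with none past the threshold, Socs2 at 0.24 ± 0.24 and Socs7 at -0.093 ± 0.14. Among 11 further inhibitors of JAK-STAT signalling 8 were below 0, with a median of -0.15. The ubiquitin ligase gene Cbl (-0.39 ± 0.09, adjusted p = 0.0940) and Ptpn6, encoding the phosphatase SHP-1 (-0.33 ± 0.10, adjusted p = 0.166), had the smallest p of that list.

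MAP kinases, the kinases above them, and the JAK and STAT genes gave 0 calls. None of 15 tested MAP kinases and MAP kinase kinases passed, 7 above and 8 below 0. Map2k4, which encodes a kinase that activates JNK, had a log2 fold change of 0.22 ± 0.09. Of 13 MAP kinase kinase kinases 11 were below 0 and none passed, with Zak (now Map3k20) at -0.21 ± 0.09. The 11 JAK and STAT genes gave 0 calls and 9 fold changes below 0. Jak3, whose exons overlap Insl3, had -0.86 ± 0.30 and Stat2 had -0.33 ± 0.17.

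Cytokine receptors and ligands upstream of the suppressors had 1 call. Of 19 tested receptors 16 were below 0, and Csf3r, which encodes the G-CSF receptor, a target of SOCS3, fell from 42.4 and 39.6 CPM to 27.9 and 23.0 CPM (log2 fold change -0.69 ± 0.12, adjusted p = 0.0476, edgeR). Osmr, the oncostatin M receptor, had the next smallest p, with 18 and 20 counts for control diet against 134 and 56 for high-fat diet (2.16 ± 0.41, adjusted p = 0.0581). Among 14 ligands 4 were tested. Il6, the ligand whose signalling SOCS3 limits, had 5 and 5 counts with control diet and 21 and 37 with high-fat diet (2.41 ± 0.55, adjusted p = 0.0898); it passed the low-count filter through its high-fat libraries alone, so it could only come out higher. Il10, another inducer of Socs3, had 13 and 19 counts against 35 and 36 (1.02 ± 0.40, adjusted p = 0.248).

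Immediate-early genes, which are transcribed by the pathways the phosphatases restrain, had 1 call. Of 19 tested, 10 were above and 9 below 0, with a median of 0.023. Fos, a subunit of the AP-1 factor, rose from 58.4 and 61.4 CPM to 87.8 and 91.2 CPM (log2 fold change 0.58 ± 0.09, adjusted p = 0.0387, edgeR). Ier3, which encodes a regulator of ERK and cell survival, had 0.71 ± 0.20 (adjusted p = 0.144). The calls of Errfi1, Fos and Csf3r all ended without either control library, with adjusted p from 0.105 to 0.204, in fits whose spread came from the high-fat pair alone. Their log2 fold changes without control replicate 1 and without control replicate 2 were 0.79 and 0.64 for Errfi1, 0.54 and 0.62 for Fos, and -0.64 and -0.74 for Csf3r. The calls of Errfi1 and Csf3r also ended with a filter of 1 CPM in 2 libraries or by limma-voom.

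**Figure D5:**
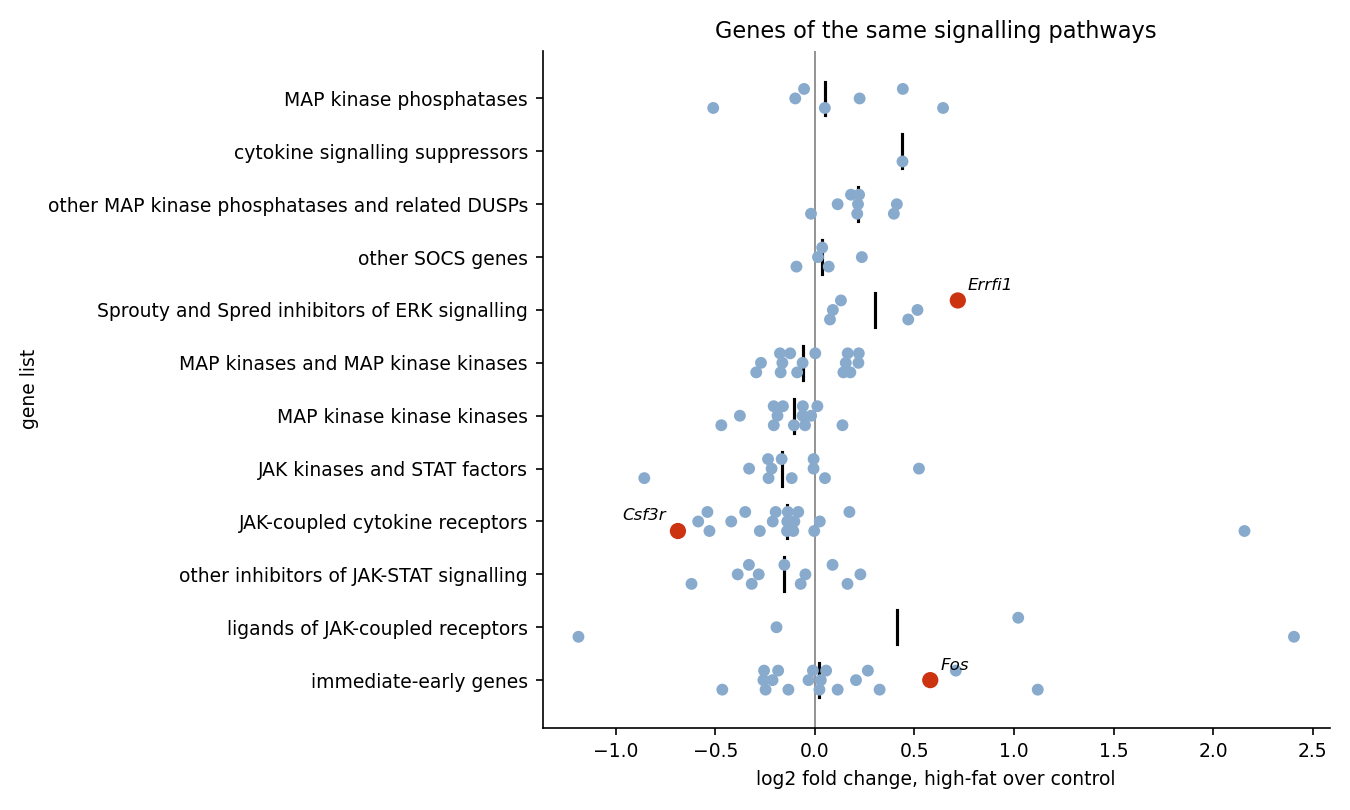
Log2 fold change, high-fat over control, of every tested gene in each list; red points are genes past an adjusted p of 0.05 and black lines are list medians. Errfi1, Fos and Csf3r are the 3 called genes, and the members in the upper 2 rows lie between -0.51 and 0.64.

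Markers of other cells in these populations differed between libraries too. The 14 mesothelial and fibroblast markers summed to 21.1 and 28.4 CPM in the control libraries and to 174 and 85.9 CPM in the high-fat libraries. In 9 of the 14 both high-fat libraries were above both controls. Of the 10 tested, 8 were so separated, against 26.1% of all tested genes. Lum, which encodes a matrix proteoglycan, was called higher, but Lum (8 and 9 counts against 83 and 47) and Wt1 passed the low-count filter through their high-fat libraries alone and could only come out higher. The library with the most of these markers, high-fat replicate 1, had the lower Dusp1, Dusp2, Dusp4, Dusp10 and Dusp16 of the high-fat pair. It had the higher Dusp5, Dusp6 and Socs3, each by a small margin. B cell markers summed to 126, 116, 115 and 210 CPM in control replicates 1 and 2 and high-fat replicates 1 and 2, so that high-fat replicate 2, with the highest Dusp1, Dusp10 and Dusp16, also had the highest B cell sum. The list was not uniform: Cd22, its most abundant gene, was lower in both high-fat libraries (59.8, 53.1, 48.2 and 40.9 CPM), and Igj, the gene called higher, was highest in high-fat replicate 1 (3.66 CPM, against 3.05 in replicate 2). The call of Igj ended with the filter of 1 CPM (adjusted p = 0.0549) and by limma-voom (0.0526). Neutrophil markers summed to 112 and 116 CPM against 80.9 and 67.3 CPM, with Mmp9 and Csf3r, which is also in the receptor list, called lower. Of the 13 listed, 9 were tested. Elane was at 0 in all 4 libraries, and Camp, Ngp and Mpo had at most 2 counts in any library. Dendritic cell markers summed to 21.5, 24.0, 13.9 and 25.9 CPM, but most of the last sum was Ccr7 and Dpp4, at 10.6 CPM each. Flt3, Xcr1, Clec9a, Siglech and Cd209a, 5 of the 9 found and of the 8 tested, were lower in both high-fat libraries, and Cd209a was called. Among all tested genes 24.9% were so separated. Siglech (40 and 27 counts against 7 and 10) passed the low-count filter through its control libraries alone and could only come out lower. The eosinophil, mast cell and basophil list summed to 54.9, 52.4, 39.3 and 59.2 CPM. Both this sum and that of the dendritic cell markers were lowest in high-fat replicate 1, as Dusp2 was. Cpa3 was the most abundant gene of the eosinophil, mast cell and basophil list. Siglecf (2.96, 4.43, 1.62 and 1.33 CPM) and Ccr3 (4.32, 11.1, 1.70 and 1.58 CPM) were lower in both high-fat libraries. Of the 8 tested genes of that list, 4 were above 0 and 4 below, with 0 called. The T and NK cell list lay between 1043 and 1166 CPM, nearly all of it Il7r. Without Il7r it summed to 6.61, 8.42, 4.87 and 25.7 CPM, highest in high-fat replicate 2, the library with the highest Dusp1, Dusp10 and Dusp16. The T cell receptor gene Cd3g stood at 0.72, 1.03, 0.689 and 6.96 CPM, and Cd3d had 7, 15, 10 and 151 counts and Cd8b1 8, 4, 9 and 112. edgeR called 0 genes of this list. Of the 10 tested, 1 had an unadjusted p under 0.05. That gene was Klrb1c, which was lower with high-fat diet (log2 fold change -0.74 ± 0.31). Of the macrophage markers 9 of 10 were below 0, and in 6 of the 10, all tested, both high-fat libraries were below both controls. Among all tested genes this share was 24.9%. Mertk was called lower, a call that ended with the filter of 1 CPM (adjusted p = 0.0519) and by limma-voom (0.0526). Each of the marker calls ended without either control library, where the high-fat pair alone supplies the spread. The part of other cells in the levels of the members was not tested, and in bulk RNA fewer cells of a type cannot be told apart from less RNA per cell.

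The genes most like Dusp1 across the 4 libraries were Stk38l, Dab2 and Kitl. Likeness was the root mean square distance between log2 CPM profiles, each centred on its own mean, among 8481 genes of at least 5 CPM, and the distances were 0.017, 0.032 and 0.046. Stk38l encodes a protein kinase, Dab2 an endocytic adaptor and Kitl the ligand of the receptor KIT. Dab2 stood at 54.5, 49.7, 62.0 and 75.5 CPM in control replicates 1 and 2 and high-fat replicates 1 and 2, the same order as Dusp1. With 4 libraries many genes share such a profile.

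No exon of a member overlaps an exon of another deposited gene model, on either strand. Assembled genes without a RefSeq name lay within 100 kb of 3 members. XLOC_012645, 25528 bp from Dusp1, had 34, 42, 63 and 40 counts in control replicates 1 and 2 and high-fat replicates 1 and 2, and its diets overlapped while those of Dusp1 did not. XLOC_003477, 21008 bp from Dusp6, had 28, 35, 37 and 23 counts, and XLOC_000885, 6326 bp from Dusp10, had 16, 6, 11 and 5.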

How the data were processed

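Total RNA depleted of ribosomal RNA from 2 libraries for each diet was sequenced from both ends, per the labels' protocols. The authors deposited raw read counts per gene, 1 table per library, and gene models on mm9. Per the submitters' processing notes, HTSeq, TopHat2 2.0.10 and Cufflinks 2.1.1 were used; their order and strand settings were not given in the sources used here. Summary lines were left out: alignments at several places made up 37.5% to 48.5% of a table's total, reads outside genes 13.5% to 15.0%, and ambiguous reads 0.664% to 0.823%. Replicates differed beyond sampling noise (chi-square per degree of freedom 33.8 and 34.9), so each counts as 1 library.

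Genes were kept by filterByExpr (minimum count 10, total 15). The main fit was edgeR 4.0.16 (robust quasi-likelihood, TMM, diet as the only term, 2 residual degrees of freedom), with Benjamini-Hochberg adjustment over all 12747 kept genes and a threshold of 0.05. Each SE is the log2 fold change over the square root of F. Alternatives were size factors by RLE, other low-count filters, DESeq2 1.42.0, limma-voom (limma 3.58.1), the replicate number as a block, and leaving out each library. The fits were tested on simulated data. Members and lists were chosen with earlier results of these data known. Beyond the members, the text names in each list the called genes, filled to 2 by smallest p, apart from 2 genes not reported here; Adgre1 and the ratios were chosen after their values were seen. RefSeq promoters come from GRCm38.p6, and no coordinate was moved between builds.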

Additional observations from a re-analysis of the deposited data

How the results depend on the processing

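Of the 8 members tested, 5 kept their direction in all 10 alternatives: Dusp1, Dusp2, Dusp5, Dusp6 and Socs3. These are the 5 whose diets' libraries did not overlap, as in 51.0% of all tested genes. Leaving out 1 library keeps such a separation, and the other settings reuse the same 4 libraries, so the kept direction adds no further evidence. Without each library in turn Dusp4 ran from -0.12 to 0.0065, Dusp16 from -0.14 to 0.22 and Dusp10 from -0.045 to 0.46, so each crossed 0. No member was called higher, which became 1 (Dusp1) with no filter on low counts; without each library in turn it was 0 to 1, the 1 being Dusp1 without high-fat replicate 1, and members called lower stayed at 0. The median log2 fold change of the members was -0.060 to 0.32 without each library, the lowest without high-fat replicate 2.

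Over all genes 41 were called higher and 37 lower. These counts were 255 and 267 with no filter on low counts, 25 and 21 with a filter of 1 CPM in 2 libraries, 166 and 200 by DESeq2 and 23 and 23 by limma-voom, and 1 to 436 and 2 to 387 without each library in turn, lowest without control replicate 2 and highest without high-fat replicate 1. In the pathway lists the 2 higher and 1 lower calls became 5 and 5 with no filter, 1 and 0 with the CPM filter, 3 and 4 by DESeq2, 1 and 0 by limma-voom, and 0 to 8 and 0 to 4 without each library. In the marker lists the 2 higher and 4 lower calls became 4 and 11 with no filter, 1 and 2 with the CPM filter, 6 and 10 by DESeq2, 1 and 2 by limma-voom, and 0 to 22 and 0 to 16 without each library. The cause of these shifts was not tested.

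The labels number the replicates 1 and 2 in both diets but do not say that a number pairs samples; the deviations of same-numbered libraries from their diet means correlated at 0.0888 across genes. With the replicate number as a block 49 genes were called higher and 64 lower over all genes, 1 and 1 in the pathway lists, 1 and 5 in the marker lists, and 0 members; the calls of Errfi1 (adjusted p = 0.0515, edgeR) and Igj (0.065) ended. Fits without a library have 1 library in a diet, assumed to vary like the other pair. Counts of Socs1 and Cish were too low for a comparison at this depth.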
